A study of Mus musculus with 12 samples.

Results

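The genes described are 34 targets of the tumour suppressor p53 and of the DNA damage response, followed through mouse blood progenitors with and without an enhancer of Cebpa. They were taken by name from a list that left out Cdkn1a, Bax, Bbc3, Btg2 and Sesn2, and all 34 had a row among the 23383 genes joined over the 12 libraries. RNA came from bone marrow of C57BL/6 mice in 4 groups of 3 libraries. Enhancer-null common myeloid progenitors (CMP) came from mice that carried no intact copy of the enhancer 42 kb from Cebpa, and wild-type CMP came from mice with both copies. The LSK fraction, which holds the stem cells, gave enhancer-null LSK and wild-type LSK libraries. Cebpa codes for the factor that commits progenitors to granulocytes and monocytes. The labels name no Cre driver, no treatment and no DNA-damaging agent, and they give neither age nor sex. They do not say that replicates came from separate animals. Every group held libraries with Xist and libraries with Y-linked transcripts, so no group came from a single animal. The p-values measure the spread between these libraries, which may be technical in part. Libraries carry the number of their label, 1, 2 and 7 for enhancer-null and 1, 6 and 8 for wild type.

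p53 is a transcription factor that is made continuously and degraded continuously. Mdm2 and Mdm4 hold it down, and stress kinases release it. Released p53 switches on genes of growth arrest, cell death, DNA repair and metabolism, among them Mdm2 itself, which closes a feedback loop. In blood stem and progenitor cells the pathway is known for limiting the survival of cells with damaged DNA and for its part in stem cell quiescence. Because p53 is regulated mostly as a protein, the level of its own mRNA, Trp53, does not measure its activity. The libraries hold no measure of p53 protein, so the mRNA levels of the targets are given without a reading of that activity.

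The CMP libraries held 8976999 to 20122669 gene counts in the enhancer-null and 15470260 to 32770938 in the wild-type group, and the LSK libraries 6170491 to 49149674 in the enhancer-null and 14753266 to 34080293 in the wild-type group. CPM stands for read counts put on a common library size, here with TMM factors over the 12 libraries. Cebpa had 0, 3 and 0 counts in enhancer-null CMP against 544, 270 and 463 in wild-type CMP, and 1, 0 and 15 in enhancer-null LSK against 226, 118 and 39 in wild-type LSK. Detection was patchy in several libraries. Of the 9186 genes averaging 10 CPM or more, 5.99% had 0 or 1 count in enhancer-null CMP replicate 1 and 3.46% in wild-type LSK replicate 6, against 0% to 2.53% in the other 10 libraries. Of the 24 members above that level, those libraries had 0 or 1 count for 2 and 3. Summed levels of 8 LSK markers were 1004 to 1244 CPM in enhancer-null LSK and 2379 to 2454 CPM in wild-type LSK, and 111 to 243 CPM in enhancer-null CMP and 468 to 741 CPM in wild-type CMP. In bulk RNA, fewer cells of a type and less RNA per cell cannot be told apart.

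Between the genotypes 0 members passed the threshold in CMP, where 0.589% of all tested genes did, and 0 in LSK, where 0.103% did. The threshold was a p under 0.05 in the quasi-likelihood test of edgeR, adjusted by Benjamini-Hochberg over all genes. Between the wild-type cell types 2 of 34 members passed, against 4.2% of all genes, and both fell in CMP relative to LSK. They were Plk2, a polo-like kinase of the stress response, and Sesn1, sestrin 1, which holds back the growth kinase complex mTORC1. The transcript of p53 itself, Trp53, ranged only from 438 to 696 CPM over the 12 libraries. Per kilobase of exon it was the most abundant member, with a mean over the 4 groups of 149 CPM per kb, followed by Sesn1 at 45.1, Ccng1 at 38.5, Casp1 at 38.3 and Xpc at 28.3 CPM per kb. At the other end stood Eda2r at 0.0825, Epha2 at 0.195 and Zmat3 at 0.206 CPM per kb. Summed over the 34 members, the level was 2009 to 2413 CPM in enhancer-null CMP, 1644 to 1801 CPM in wild-type CMP, 2124 to 2475 CPM in enhancer-null LSK and 1810 to 2070 CPM in wild-type LSK. Trp53 alone made up 24.2% to 39.9% of that sum. The map of levels shows the members by role.

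**Figure D1:**
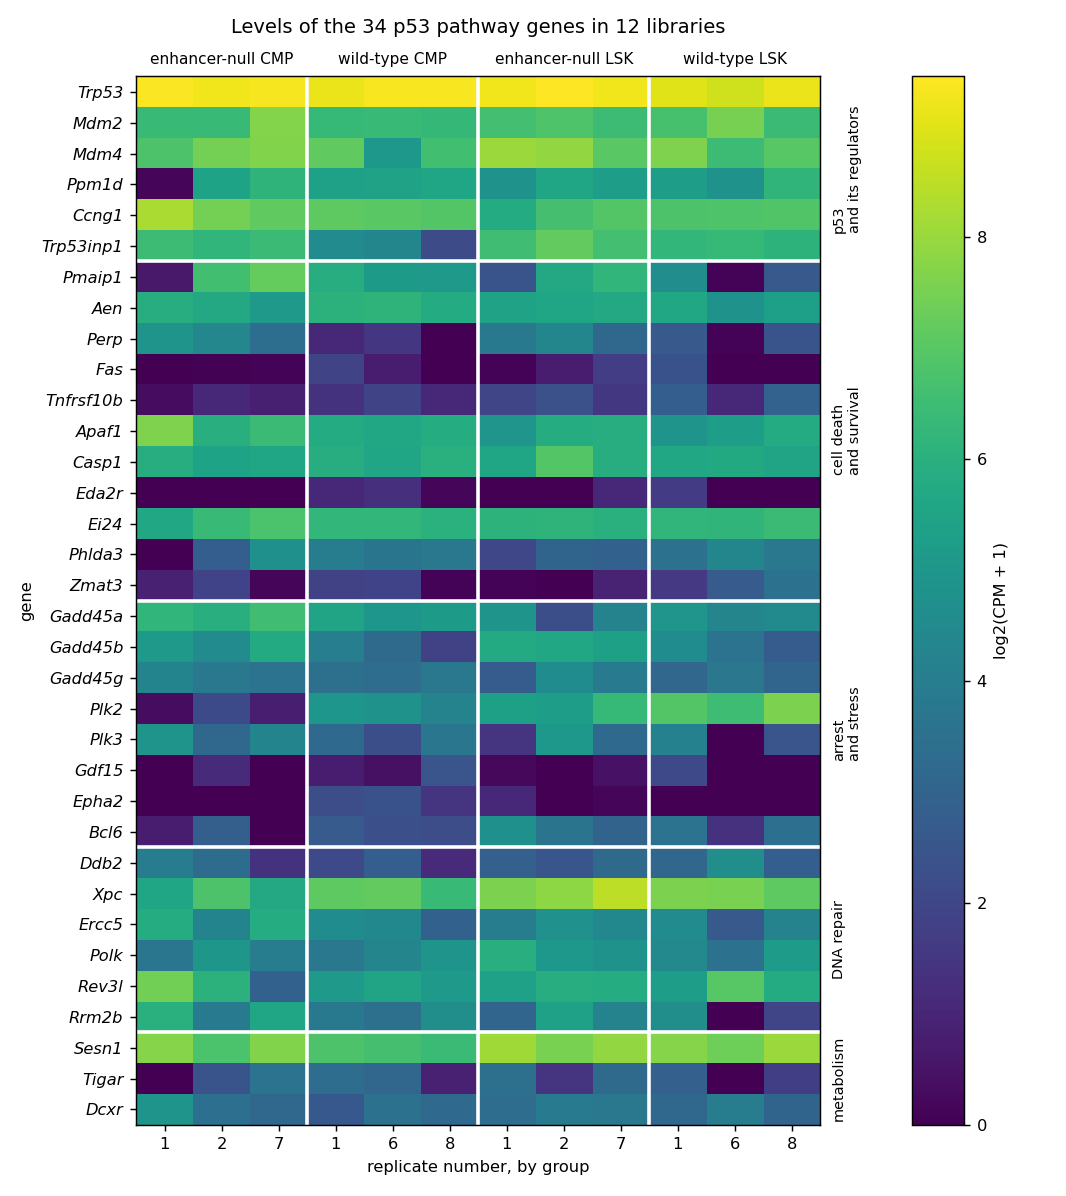
Level of each of the 34 members (one line per gene, grouped by role) in each of the 12 libraries, as log2(CPM + 1), from dark purple (0) to yellow (highest). Trp53 is yellow in every library, the cells of Plk2 are darkest in enhancer-null CMP, and Fas, Eda2r and Epha2 are dark in most libraries.

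Upstream sequences of RefSeq (build GRCm38.p6) were matched by symbol for 25 of the 34 members, in 31 windows of 300 bases that ran 250 bases before to 50 bases after a start site. No window was found for Rev3l, Zmat3, Tnfrsf10b, Perp, Ddb2, Rrm2b, Xpc, Trp53inp1 and Pmaip1. Both strands were searched for the p53 decamer, the 10-base unit that p53 response elements carry in pairs, for the cyclic AMP response element (CRE) TGACGTCA, for the AP-1 site TGANTCA and for the C/EBP site TTNNGCAA. The p53 decamer was in 10 of 31 member windows, of the 9 genes Aen, Ccng1, Ei24, Gadd45a, Mdm2, Polk, Ppm1d, Sesn1 and Trp53, and in 8.36% of all 32851 windows. The CRE was in the windows of Epha2, Plk2 and Ppm1d and in 1.79% of all windows, the AP-1 site in those of Fas and Mdm4 and in 7.81% of all, and the C/EBP site in those of Eda2r, Gadd45a and Mdm4 and in 10.8% of all. None of these patterns contains another, and a match is a description of letters and not of binding. The bases before the start site follow, 5′ to 3′ on the gene's strand, for the 2 members that passed the threshold and for Ccng1 and Gadd45a, whose libraries stood apart between the genotypes in CMP and between the cell types in both genotypes. Capitals mark the CRE in Plk2 (chr13:110394794-110395043, plus strand, first base at −62 from the start site) and the p53 decamer in Sesn1 (chr10:41887189-41887438, plus strand, −173, the downstream one of 2 windows), in Ccng1 (chr11:40755287-40755536, minus strand, −185) and in Gadd45a (chr6:67037408-67037657, minus strand, −40).
Plk2: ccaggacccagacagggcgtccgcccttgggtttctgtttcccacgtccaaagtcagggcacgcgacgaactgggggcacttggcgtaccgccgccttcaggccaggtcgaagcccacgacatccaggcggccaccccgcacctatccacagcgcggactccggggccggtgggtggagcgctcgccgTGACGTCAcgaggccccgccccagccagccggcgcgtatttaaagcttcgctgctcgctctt
Sesn1: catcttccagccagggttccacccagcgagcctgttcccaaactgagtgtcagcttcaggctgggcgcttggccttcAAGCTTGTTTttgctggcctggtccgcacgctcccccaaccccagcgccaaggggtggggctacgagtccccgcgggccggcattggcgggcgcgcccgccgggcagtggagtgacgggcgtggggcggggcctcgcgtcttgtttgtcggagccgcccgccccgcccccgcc
Ccng1: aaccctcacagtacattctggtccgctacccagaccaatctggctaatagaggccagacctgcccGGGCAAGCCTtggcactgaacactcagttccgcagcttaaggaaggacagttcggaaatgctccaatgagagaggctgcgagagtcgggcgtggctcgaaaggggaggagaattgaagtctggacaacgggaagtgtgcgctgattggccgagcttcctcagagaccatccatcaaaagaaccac
Gadd45a: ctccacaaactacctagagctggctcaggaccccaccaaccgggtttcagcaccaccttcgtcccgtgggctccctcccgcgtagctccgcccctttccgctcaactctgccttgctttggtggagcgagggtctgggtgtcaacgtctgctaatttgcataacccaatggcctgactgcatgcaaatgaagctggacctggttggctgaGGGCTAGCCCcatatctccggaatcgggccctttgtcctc

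Among Trp53 and 5 genes that act on p53 or its regulators, Trp53inp1 and Ccng1 separated between the CMP genotypes and Trp53 and Trp53inp1 between the LSK genotypes, none past the threshold. All values are in the order of the library numbers. Trp53 had 677, 609 and 638 CPM in enhancer-null CMP, against 580.1, 645 and 656 CPM in wild-type CMP. In LSK it had 608, 696 and 598 CPM in the enhancer-null libraries, against 507, 438 and 569.7 CPM in the wild-type ones. The CMP groups overlapped, while the 3 enhancer-null LSK libraries all lay above the wild-type ones. The log2 fold change was 0.04 (SE 0.12, adjusted p = 0.94) in CMP and 0.35 (SE 0.14, adjusted p = 0.595) in LSK. Wild-type LSK was thus the lowest of the 4 groups, and wild-type CMP libraries all lay above it (log2 fold change CMP over LSK 0.37, SE 0.14, adjusted p = 0.182). In enhancer-null cells the same ratio was 0.02 (SE 0.12, adjusted p = 0.994).

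Mdm2, the ubiquitin ligase that marks p53 for degradation, had 83.8, 81.4 and 206 CPM in enhancer-null CMP against 79.8, 81.9 and 77.2 CPM in wild-type CMP, and 96.4, 115 and 87.3 CPM in enhancer-null LSK against 104, 180.5 and 85.2 CPM in wild-type LSK. Single libraries, enhancer-null CMP replicate 7 and wild-type LSK replicate 6, stood above the rest. The genotype groups overlapped in both cell types (log2 fold change 0.65, SE 0.39, adjusted p = 0.589 in CMP, or 0.056 without enhancer-null CMP replicate 7, and −0.28, SE 0.32, adjusted p = 0.864 in LSK). In wild type all CMP libraries lay below all LSK libraries (log2 fold change −0.58, SE 0.31, adjusted p = 0.346).

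Mdm4, the partner of Mdm2 that restrains p53 activity, had 111, 176 and 199.8 CPM in enhancer-null CMP against 139.9, 31.9 and 95.5 CPM in wild-type CMP, and 259, 243 and 131 CPM in enhancer-null LSK against 197, 86.9 and 126 CPM in wild-type LSK. The groups overlapped in every comparison, with genotype log2 fold changes of 0.88 (SE 0.50, adjusted p = 0.565) in CMP and 0.65 (SE 0.37, adjusted p = 0.703) in LSK. Ppm1d, the phosphatase Wip1 that removes activating phosphates from p53, had 0.115, 44.0 and 69.6 CPM in enhancer-null CMP against 41.7, 42.0 and 47.0 CPM in wild-type CMP. It had 26.8, 46.0 and 38.0 CPM in enhancer-null LSK against 38.7, 27.4 and 72.0 CPM in wild-type LSK. The low value belongs to enhancer-null CMP replicate 1, a library with many abundant genes at 0 or 1 count. The log2 fold change between CMP genotypes was −0.18 (SE 1.28, adjusted p = 0.978), and 0.37 without that library. In LSK it was −0.29 (SE 0.45, adjusted p = 0.902).

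Trp53inp1, a stress protein that promotes phosphorylation of p53, had the lowest adjusted p of the members between CMP genotypes. It had 87.6, 73.1 and 84.7 CPM in enhancer-null CMP against 22.8, 18.9 and 3.62 CPM in wild-type CMP. The lowest enhancer-null library was above the highest wild-type library, and the log2 fold change was 2.45 (SE 0.63, adjusted p = 0.177). In LSK it had 91.5, 143 and 98.7 CPM in enhancer-null against 75.5, 80.2 and 68.5 CPM in wild-type libraries, again without overlap (log2 fold change 0.60, SE 0.26, adjusted p = 0.625). Wild-type CMP was therefore the group that stood low. CMP over LSK gave −2.25 (SE 0.62, adjusted p = 0.096) in wild type and −0.44 (SE 0.27, adjusted p = 0.849) in enhancer-null cells, both without overlap, and the difference between those steps was 1.89 (SE 0.68, adjusted p = 0.479).

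Ccng1, cyclin G1, which works with a phosphatase that acts on Mdm2, had 305, 177 and 139.9 CPM in enhancer-null CMP against 135, 129 and 119 CPM in wild-type CMP, and 55.7, 101 and 119 CPM in enhancer-null LSK against 110.1, 113 and 118 CPM in wild-type LSK. Its CMP groups did not overlap, with enhancer-null CMP replicate 1 far above the others (log2 fold change 0.71, SE 0.30, adjusted p = 0.387, or 0.30 without that library). That library also had many abundant genes at 0 or 1 count. In both genotypes all CMP libraries lay above the LSK libraries, by a log2 fold change of 1.17 (SE 0.38, adjusted p = 0.585) in enhancer-null and 0.22 (SE 0.17, adjusted p = 0.542) in wild-type cells. The wild-type separation was narrow, with 119 CPM in CMP replicate 8 against 118 CPM in LSK replicate 8. So was that between CMP genotypes, at 139.9 CPM in enhancer-null replicate 7 against 135 CPM in wild-type replicate 1.

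**Figure D2:**
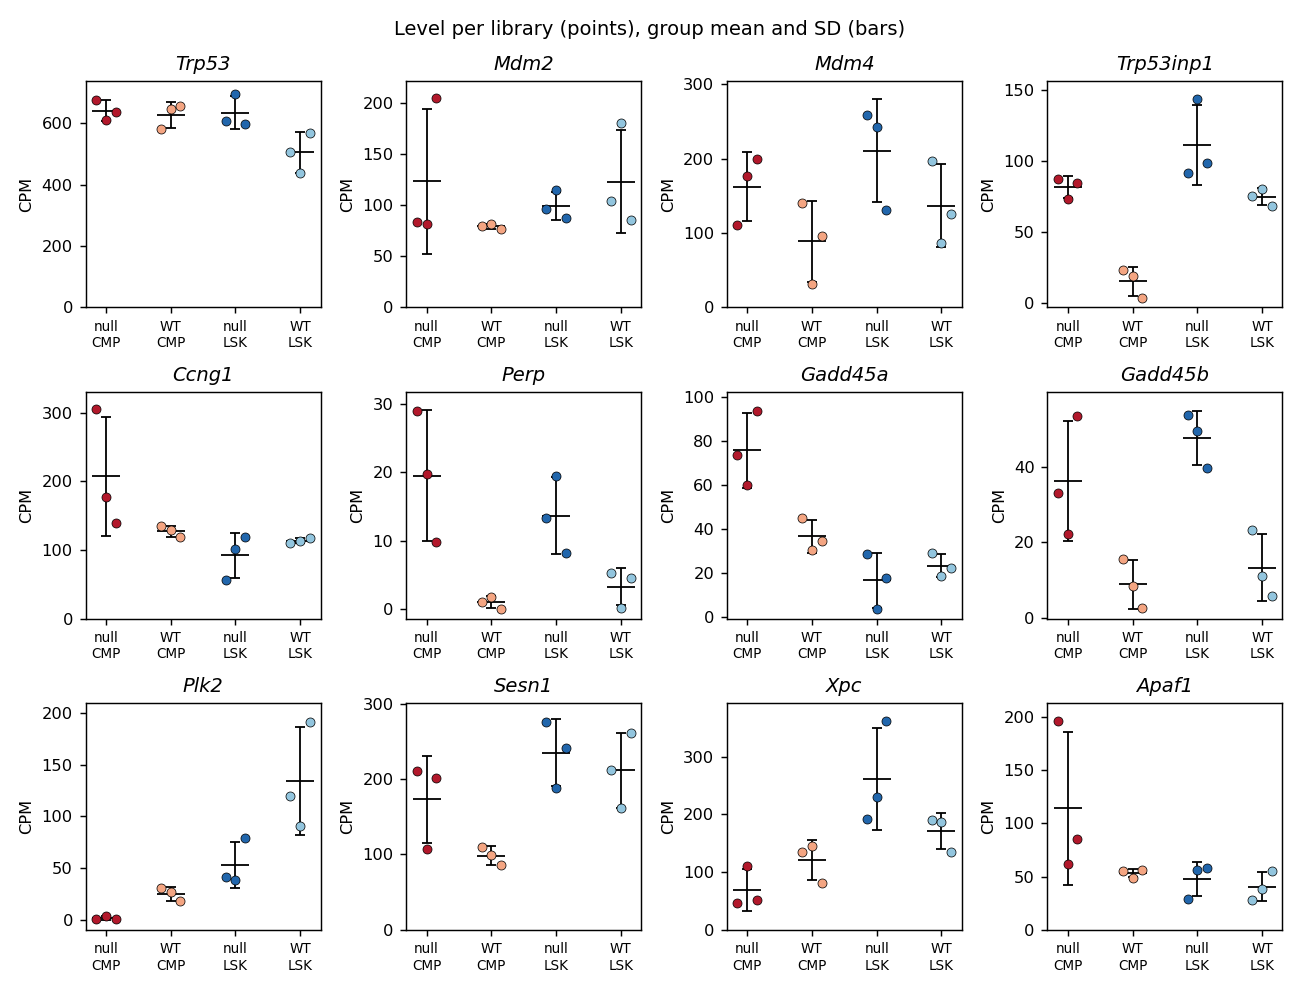
CPM of selected members in each library, with 1 panel per gene, points for libraries (null, enhancer-null; WT, wild type) and a line with bars for the mean ± SD of 3 libraries. Plk2 is lowest in enhancer-null CMP and highest in wild-type LSK, Trp53inp1 and Perp are lowest in wild-type CMP, and the groups of Trp53 lie close together.

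Among the 11 members that act in cell death or survival, Perp and Apaf1 were higher and Tnfrsf10b and Eda2r lower in enhancer-null CMP than in wild-type CMP without overlap. Between the LSK genotypes Perp was higher and Ei24, Phlda3 and Zmat3 lower in enhancer-null cells without overlap. None of the tested ones passed the threshold, and Eda2r was not tested between the genotypes. Tnfrsf10b and Eda2r stayed at or below 2.79 CPM in every CMP library. Perp, a membrane protein of desmosomes that takes part in p53-dependent death, had 29.0, 19.8 and 9.78 CPM in enhancer-null CMP against 1.05, 1.78 and 0 CPM in wild-type CMP. In LSK it had 13.3, 19.4 and 8.16 CPM in enhancer-null against 5.19, 0.0698 and 4.48 CPM in wild-type libraries. All 3 enhancer-null libraries were above all wild-type libraries in both cell types, with log2 fold changes of 4.37 (SE 1.59, adjusted p = 0.316) in CMP and 2.10 (SE 1.40, adjusted p = 0.758) in LSK. Apaf1, the scaffold of the apoptosome, had 196, 61.7 and 85.2 CPM in enhancer-null CMP against 55.1, 48.8 and 56.2 CPM in wild-type CMP. It had 29.0, 56.4 and 58.1 CPM in enhancer-null LSK against 28.3, 38.3 and 55.1 CPM in wild-type LSK. The CMP groups did not overlap and the LSK groups did. The log2 fold change was 1.11 (SE 0.44, adjusted p = 0.361) in CMP, or 0.45 without enhancer-null CMP replicate 1, and 0.26 (SE 0.42, adjusted p = 0.903) in LSK, and 1.26 (SE 0.50, adjusted p = 0.679) for enhancer-null CMP over enhancer-null LSK.

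Pmaip1, which encodes the death protein Noxa, varied widely between replicates. It had 0.577, 94.1 and 149 CPM in enhancer-null CMP against 57.5, 34.3 and 33.2 CPM in wild-type CMP, and 4.45, 50.9 and 73.6 CPM in enhancer-null LSK against 24.04, 0.0698 and 5.17 CPM in wild-type LSK. The values of 0.577 and 0.0698 CPM belong to enhancer-null CMP replicate 1 and wild-type LSK replicate 6. Those libraries had the largest shares of abundant genes at 0 or 1 count. The genotype groups overlapped, while in wild type all CMP libraries lay above all LSK libraries (log2 fold change 2.16, SE 1.33, adjusted p = 0.418, and 1.58 to 4.03 over 12 alternatives). Aen, an apoptosis-enhancing nuclease, had 65.9, 69.7 and 55.6 CPM in wild-type CMP against 47.9, 27.8 and 39.7 CPM in wild-type LSK. These groups did not overlap (log2 fold change 0.79, SE 0.30, adjusted p = 0.193). In enhancer-null cells Aen had 58.6, 50.5 and 33.8 CPM in CMP and 42.0, 46.8 and 50.8 CPM in LSK, which overlapped.

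Phlda3, a protein that restrains the survival kinase Akt, had 3.07, 7.23 and 6.57 CPM in enhancer-null LSK against 10.5, 19.1 and 12.9 CPM in wild-type LSK (log2 fold change −1.30, SE 0.86, adjusted p = 0.755). Zmat3, an RNA-binding zinc finger protein, had 0.0768, 0 and 0.926 CPM in enhancer-null LSK against 1.96, 5.52 and 10.7 CPM in wild-type LSK (log2 fold change −4.04, SE 1.88, adjusted p = 0.651, or −6.83 without enhancer-null LSK replicate 7 and −3.41 without wild-type LSK replicate 8). The enhancer-null libraries were the lower ones in each pair, without overlap. In CMP both genes overlapped. Phlda3 had 0, 6.12 and 25.8 CPM there in enhancer-null against 14.7, 11.8 and 12.6 CPM in wild-type libraries, and Zmat3 had 0.807, 2.74 and 0.121 CPM against 2.63, 2.73 and 0.0647 CPM. Ei24, an endoplasmic reticulum protein of autophagy, had 68.5, 70.4 and 62.8 CPM in enhancer-null LSK against 72.9, 72.2 and 84.7 CPM in wild-type LSK (log2 fold change −0.16, SE 0.24, adjusted p = 0.896). That separation was narrow, and the gene lay between 48.6 and 108 CPM in all libraries. The inflammatory caspase Casp1 lay between 43.8 and 119 CPM. The death receptors were scarce. Fas reached at most 4.21 CPM, Tnfrsf10b, the mouse TRAIL receptor, 6.88 CPM and Eda2r, an X-linked receptor, 2.16 CPM. Tnfrsf10b had 0.231, 1.08 and 0.790 CPM in enhancer-null CMP against 1.59, 2.79 and 1.10 CPM in wild-type CMP, without overlap (log2 fold change −1.35, SE 1.44, adjusted p = 0.80). That separation was narrow too, with 22 counts in enhancer-null CMP replicate 2 and 17 in wild-type CMP replicate 8. Eda2r had 0 counts in all 3 enhancer-null CMP libraries and 33, 26 and 2 in wild-type CMP. Pooled over libraries (61 counts in wild-type CMP), enhancer-null CMP was at least 14.3-fold lower against a floor of 3 counts over the group. That bound does not cover the spread between libraries, and the 2 counts of wild-type CMP replicate 8 are fewer than 3. In LSK Eda2r had 0, 0 and 52 counts in enhancer-null and 75, 0 and 0 in wild-type libraries.

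The arrest and stress genes held the smallest adjusted p of the list, that of Plk2. Plk2 had 0.231, 3.33 and 0.729 CPM in enhancer-null CMP against 30.3, 27.0 and 17.7 CPM in wild-type CMP. It had 40.8, 38.6 and 78.5 CPM in enhancer-null LSK against 119.6, 90.7 and 192 CPM in wild-type LSK. No 2 of these groups overlapped, and their order from the lowest was enhancer-null CMP, wild-type CMP, enhancer-null LSK and wild-type LSK. In wild type, Plk2 fell in CMP relative to LSK by 2.37 on the log2 scale (SE 0.36, adjusted p = 0.0186). In enhancer-null cells the same step was −5.14 (SE 1.06, adjusted p = 0.305). Between the genotypes the log2 fold change was −4.09 (SE 1.17, adjusted p = 0.218) in CMP and −1.32 (SE 0.40, adjusted p = 0.421) in LSK, and the difference between those effects was −2.69 (SE 0.93, adjusted p = 0.435). The wild-type call was lost without any one of the 3 wild-type CMP libraries or without wild-type LSK replicate 1 (adjusted p 0.0534 to 0.0871). It was also lost with a replicate block (adjusted p 0.0726) and in 1 fit over 12 libraries (adjusted p 0.0705), and the direction held in each.

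The 3 Gadd45 genes, growth arrest and DNA damage proteins that sense stress, were Gadd45a, Gadd45b and Gadd45g. Gadd45a had 73.5, 60.2 and 93.8 CPM in enhancer-null CMP against 45.0, 30.4 and 34.7 CPM in wild-type CMP, and 28.8, 3.86 and 17.8 CPM in enhancer-null LSK against 29.2, 18.8 and 22.1 CPM in wild-type LSK. It stood apart between the genotypes in CMP (log2 fold change 1.06, SE 0.32, adjusted p = 0.24) and not in LSK (−0.45, SE 0.75, adjusted p = 0.912). CMP libraries lay above LSK libraries in enhancer-null (2.17, SE 0.68, adjusted p = 0.566) and wild-type cells (0.71, SE 0.38, adjusted p = 0.353). An opposite-strand gene, E230016M11Rik, shares 19.1% of the exonic bases of Gadd45a, and the strand setting of the counting is not given, so reads of the pair cannot be told apart.

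Gadd45b, which is also a target of NF-kB and TGF beta signals, had 33.2, 22.3 and 53.6 CPM in enhancer-null CMP against 15.6, 8.53 and 2.59 CPM in wild-type CMP. In LSK it had 53.9, 49.7 and 39.9 CPM in enhancer-null against 23.2, 11.0 and 5.74 CPM in wild-type libraries. The enhancer-null libraries were the higher ones in both cell types, without overlap. The log2 fold change was 2.05 (SE 0.77, adjusted p = 0.334) in CMP and 1.87 (SE 0.58, adjusted p = 0.433) in LSK, so the estimates were close, and their difference in the joint fit was 0.21 (SE 0.98, adjusted p = 0.994). Gadd45g, a cytokine-responsive relative, lay between 5.68 and 23.1 CPM in all libraries and overlapped in every comparison (0.40, SE 0.75, adjusted p = 0.902 in CMP, and 0.67, SE 0.84, adjusted p = 0.88 in LSK).

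Plk3, a kinase related to Plk2 and an immediate early gene, had 28.4, 8.23 and 18.3 CPM in enhancer-null CMP against 8.41, 3.79 and 11.9 CPM in wild-type CMP, with overlap. Its values in LSK ran from 1.69 to 32.1 CPM in enhancer-null and from 0 to 16.9 CPM in wild-type libraries. Epha2, an ephrin receptor kinase, had 0 counts in enhancer-null CMP and in wild-type LSK. It had 118, 75 and 27 counts in wild-type CMP, at most 4.18 CPM. Pooled over libraries (220 counts in wild-type CMP), enhancer-null CMP was at least 51.5-fold lower than wild-type CMP (edgeR adjusted p = 0.223). Wild-type CMP was at least 73.3-fold higher than wild-type LSK (edgeR adjusted p = 0.0923). Both bounds are against a floor of 3 counts over the group and do not cover the spread between libraries. Bcl6, a repressor known from germinal centre B cells, had 0.692, 6.22 and 0 CPM in enhancer-null CMP against 25.9, 11.6 and 7.01 CPM in enhancer-null LSK, without overlap (log2 fold change −2.65, SE 1.87, adjusted p = 0.874). Gdf15, a secreted stress cytokine, had no count in 5 libraries and reached 4.59 CPM at most.

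Of the 6 repair members, Xpc was the most abundant per kilobase. Xpc, which recognises damage in nucleotide excision repair, had 46.1, 111 and 50.7 CPM in enhancer-null CMP against 136, 144.9 and 80.4 CPM in wild-type CMP, and 193, 231 and 361 CPM in enhancer-null LSK against 191, 188 and 135 CPM in wild-type LSK. The CMP groups overlapped and the enhancer-null LSK libraries all lay above the wild-type ones. The genotype log2 fold change was −0.78 (SE 0.41, adjusted p = 0.521) in CMP and 0.64 (SE 0.27, adjusted p = 0.625) in LSK, and the difference between them was −1.38 (SE 0.51, adjusted p = 0.489). Enhancer-null CMP lay below enhancer-null LSK without overlap (−1.90, SE 0.42, adjusted p = 0.335). Ercc5, the XPG endonuclease of the same pathway, had 56.1, 18.1 and 56.1 CPM in enhancer-null CMP against 23.3, 20.1 and 6.60 CPM in wild-type CMP. Rrm2b, the p53-inducible subunit of ribonucleotide reductase, had 62.6, 14.0 and 47.1 CPM there against 13.2, 10.1 and 24.5 CPM. Both pairs overlapped. The polymerases of translesion synthesis were uneven between replicates, Rev3l at 6.62 to 171 CPM and Polk at 10.5 to 59.8 CPM over the 12 libraries. Ddb2, a partner of Xpc in damage recognition, lay between 1.23 and 24.4 CPM, and 23.8% of its exonic bases are shared with the opposite-strand gene Acp2.

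Of the 3 metabolic members, Sesn1 passed the threshold between the wild-type cell types. It had 210.4, 107 and 202 CPM in enhancer-null CMP and 276, 188 and 242 CPM in enhancer-null LSK. In wild type it had 110.0, 99.8 and 85.5 CPM in CMP against 212, 162 and 262 CPM in LSK. The wild-type CMP libraries all lay below the wild-type LSK libraries, while the enhancer-null cell types overlapped. The genotypes overlapped in both cell types. Their log2 fold change was 0.83 (SE 0.29, edgeR adjusted p = 0.305) in CMP and 0.17 (SE 0.23, edgeR adjusted p = 0.886) in LSK. Sesn1 fell in wild-type CMP relative to wild-type LSK by 1.05 on the log2 scale (SE 0.22, adjusted p = 0.0462), and the step in enhancer-null cells was −0.44 (SE 0.29, adjusted p = 0.862). The difference between the steps was 0.69 (SE 0.38, adjusted p = 0.738). This call was lost without any one of the 3 wild-type CMP libraries or without wild-type LSK replicate 1 or 8 (adjusted p 0.118 to 0.165), with sex as a covariate (adjusted p 0.0855) and with a replicate block (adjusted p 0.122). Tigar, which holds back glycolysis, stayed at or below 11.1 CPM and had no count in 2 libraries. Dcxr, a sugar and dicarbonyl reductase, lay between 5.14 and 28.8 CPM.

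Read over the list, the genotype comparison in CMP had 0 of 32 tested members past the threshold, against 0.589% of all 11722 genes. At an unadjusted p under 0.05 it had 9 members (background 12.6%), and DESeq2 called 4 (Epha2, Perp, Plk2 and Trp53inp1), against 5.57% of all genes to which DESeq2 gave an adjusted p. Fas and Eda2r were not tested because of low counts. The groups did not overlap, with enhancer-null higher, for Apaf1, Ccng1, Gadd45a, Gadd45b, Perp and Trp53inp1 (6 of 32 members, background 10.8%) and, with enhancer-null lower, for Epha2, Plk2 and Tnfrsf10b (3 of 32, background 12.9%). The log2 fold change was positive for 19 and negative for 13, with a median of 0.52 against −0.02 for all genes. By role the median was 0.68 for the p53 regulators, −0.17 for death, −0.26 for arrest and stress, 1.21 for repair and 0.83 for metabolism, of both signs. With Epha2 set to its bound the median was also 0.52.

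In LSK the genotype comparison had 0 of 30 tested members past the threshold, against 0.103% of 11619 genes, with 4 at an unadjusted p under 0.05 (background 7.91%) and 0 by DESeq2 (background 2.37%). Eda2r, Epha2, Fas and Gdf15 were not tested. Enhancer-null was higher without overlap for Gadd45b, Perp, Trp53, Trp53inp1 and Xpc (5 of 30, background 8.64%) and lower for Ei24, Phlda3, Plk2 and Zmat3 (4 of 30, background 10.4%). The median log2 fold change was 0.33 against −0.01 for all genes. Separation in the same direction in both cell types was seen for Gadd45b, Perp and Trp53inp1 on the higher side (3 of 30 tested in both, background 2.32%) and for Plk2 on the lower side (1 of 30, background 2.42%). The CMP and LSK comparisons share no libraries, although libraries of the same number carried the same sex by Xist and Y-linked genes.

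**Figure D3:**
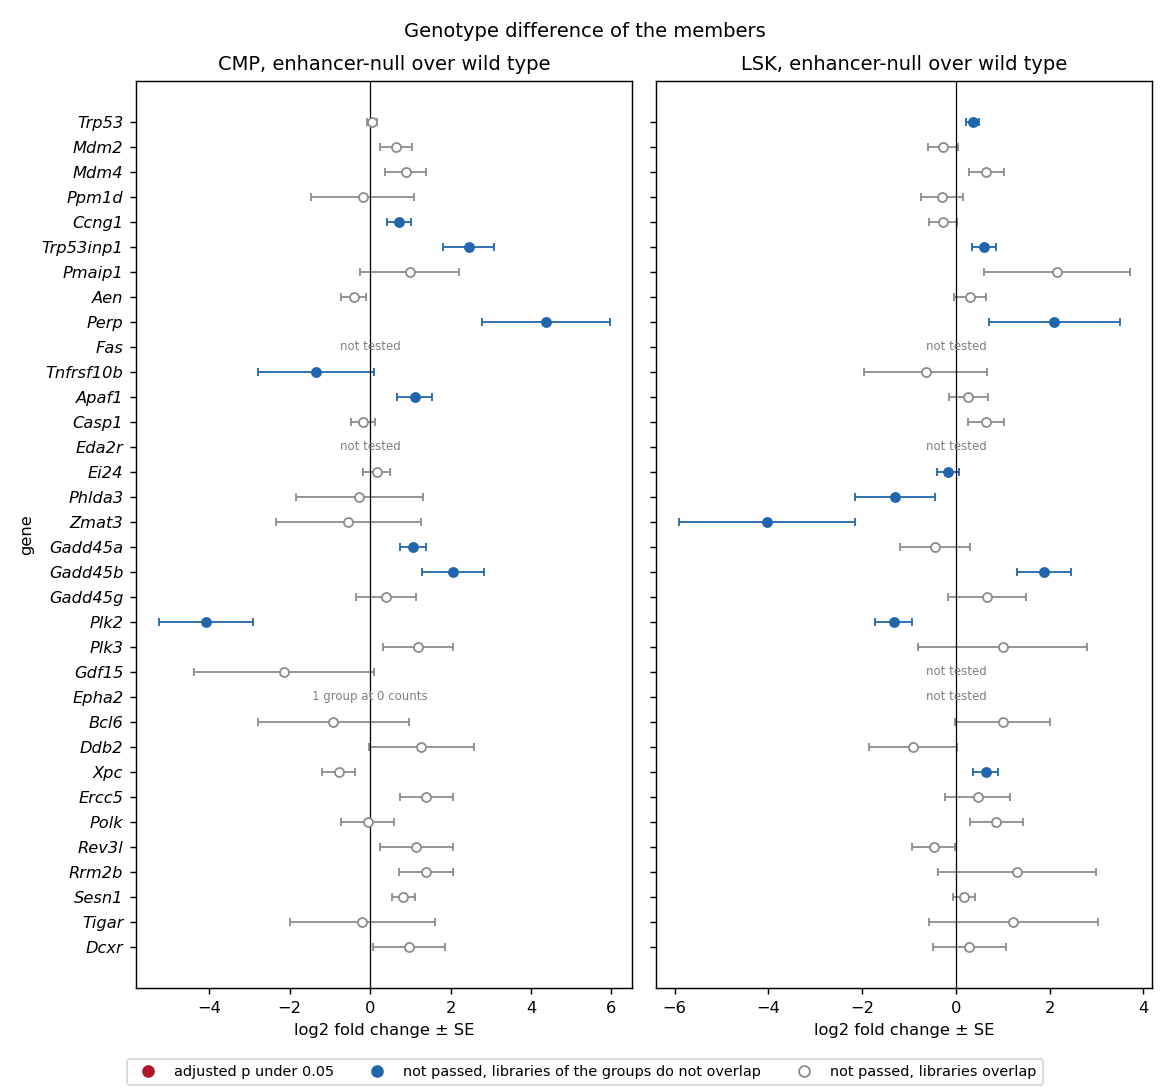
Log2 fold change of enhancer-null over wild type ± SE for each tested member except Epha2 in CMP and in LSK. Points are filled where the 3 libraries of each genotype do not overlap, and the panels have different horizontal scales. Epha2 had 0 counts in enhancer-null CMP and has a note in place of a point. Perp, Gadd45b and Trp53inp1 lie to the right of 0 and Plk2 to the left in both panels, and no point passes the threshold.

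Between wild-type CMP and LSK all 34 members were tested and 2 passed, 0 higher and 2 lower, against 4.2% of 12027 genes. At an unadjusted p under 0.05 it had 6 members (background 20.5%), and DESeq2 called 4 (Epha2, Plk2, Sesn1 and Trp53inp1; background 13.8%). The libraries did not overlap for 6 members higher in CMP, namely Aen, Ccng1, Epha2, Gadd45a, Pmaip1 and Trp53 (background 15.9%), and for 4 lower in CMP, Mdm2, Plk2, Sesn1 and Trp53inp1 (background 17.4%). Both shares were near the background. The median log2 fold change was −0.05 against −0.01 for all genes. In enhancer-null cells the same step had 0 of 30 tested members past the threshold, against 0% of 11266 genes. At an unadjusted p under 0.05 it had 5 members (background 6.92%), and DESeq2 called 2 (Plk2 and Xpc; background 1.92%). Apaf1, Ccng1 and Gadd45a were higher in CMP without overlap (background 7.58%) and Bcl6, Plk2, Tnfrsf10b, Trp53inp1 and Xpc lower (background 9.25%). The cell type comparisons and the genotype comparisons share libraries, so their values are given side by side only. For the difference in genotype effect between CMP and LSK, 0 of 34 members passed against 0.292% of 12684 genes, with 5 at an unadjusted p under 0.05 (background 7.64%) and 0 by DESeq2 (background 1.53%).

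**Figure D4:**
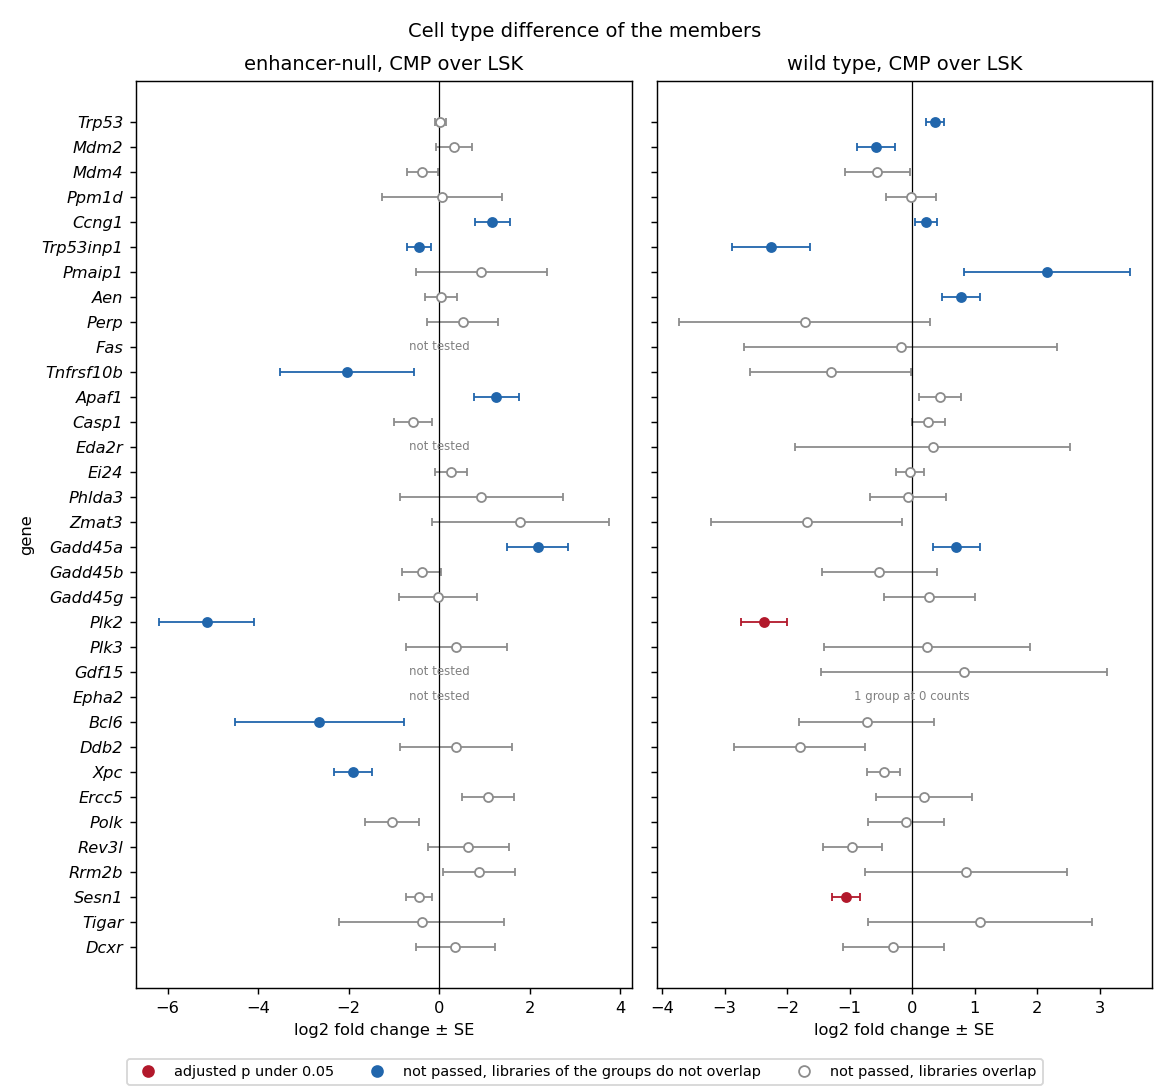
Log2 fold change of CMP over LSK ± SE for each tested member except Epha2 in enhancer-null and in wild-type cells. Red points are past the adjusted p of 0.05, and filled blue points mark libraries that do not overlap without passing. The panels have different horizontal scales. Epha2 had 0 counts in wild-type LSK and has a note in place of a point. Plk2 and Sesn1 are the red points, both in the wild-type panel.

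Other genes of the pathway were read by list. Of 26 tested p53 regulators and damage signalling genes, 0 passed in any comparison, where 0% to 4.2% of all genes did. At an unadjusted p under 0.05 the list had 6 genes between CMP genotypes (background 12.6%) and 6 between wild-type cell types (background 20.5%), and DESeq2 called 3 in each (backgrounds 5.57% and 13.8%). The smallest p between CMP genotypes belonged to H2afx, the histone variant phosphorylated at DNA breaks, which averaged 135 ± 22.9 CPM in enhancer-null and 286 ± 70.5 CPM in wild-type CMP (SD, n = 3 each; log2 fold change −1.07, adjusted p = 0.105 with edgeR). In LSK it belonged to Atm, the kinase that senses breaks, with 104 ± 16.1 CPM in enhancer-null and 50.9 ± 15.6 CPM in wild-type libraries (1.06, adjusted p = 0.39 with edgeR). Of 30 other tested p53 targets, 0 passed between CMP genotypes (4 at an unadjusted p under 0.05, 2 by DESeq2), 0 between LSK genotypes (2 and 0) and 0 between wild-type cell types (11 and 10), beside the same backgrounds. Their median log2 fold change was 0.002 between CMP genotypes (15 positive, 15 negative) and −0.347 between LSK genotypes (7 positive, 23 negative). Summed over the 33 listed, the level was 1612 to 1990 CPM in enhancer-null CMP and 1566 to 1670 CPM in wild-type CMP, which overlapped. In LSK it was 1734 to 1951 CPM in enhancer-null and 1999 to 2509 CPM in wild-type libraries, without overlap. The sum of the 34 members went the other way in LSK. Of 22 repair partners 3 passed between wild-type cell types, where 4.2% of all genes did. Rrm2 and Rrm1, the replication subunits of ribonucleotide reductase, rose in CMP relative to LSK by 1.53 (SE 0.16, edgeR adjusted p = 0.00657) and 1.24 (SE 0.20, edgeR adjusted p = 0.0202) on the log2 scale, and Ddb1, the partner of Ddb2, by 0.61 (SE 0.12, edgeR adjusted p = 0.0399). Between the genotypes 0 of 22 passed in CMP or in LSK, where 0.589% and 0.103% of all genes did. At an unadjusted p under 0.05 the list had 1 gene in each (backgrounds 12.6% and 7.91%), and DESeq2 called 0 (backgrounds 5.57% and 2.37%).

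Levels of immediate early genes and cell type markers were taken in the same libraries. Summed over 20 immediate early genes, which respond within minutes to many stimuli, the level was 7182 to 10830 CPM in enhancer-null CMP against 3486 to 6446 CPM in wild-type CMP, and 9155 to 13290 CPM in enhancer-null LSK against 11040 to 18410 CPM in wild-type LSK, where the genotypes overlapped. In CMP 4 of 20 passed and rose in enhancer-null cells (Ier3, Junb, Ier2 and Jund), where 0.589% of all genes passed. Ier3 rose to 383 ± 47.9 CPM against 41.9 ± 8.57 CPM in wild-type CMP (SD, n = 3 each, log2 fold change 3.20, edgeR adjusted p = 0.00337). In LSK 1 of 20 passed, where 0.103% of all genes did, while 6 leaned to the enhancer-null side and 14 to the wild-type side. It was Ier3, with 426 ± 15.6 CPM in enhancer-null and 137 ± 6.81 CPM in wild-type LSK (SD, n = 3 each, log2 fold change 1.67, edgeR adjusted p = 0.0128). Between wild-type cell types 8 of 19 passed and fell in CMP, where 4.2% of all genes passed. Egr1 was among those 8 (log2 fold change −3.10, SE 0.33, edgeR adjusted p = 0.00657). Mast cell and basophil markers summed to 1304 to 1729 CPM in enhancer-null CMP against 109 to 313 CPM in wild-type CMP, and to 476 to 775 CPM in enhancer-null LSK against 204 to 323 CPM in wild-type LSK. Of these 9 markers, Prss34, Cma1 and Tpsb2 were at 0 in enhancer-null CMP. The mast cell protease Cpa3 made up most of the sum in enhancer-null CMP, where it rose to 1103 ± 210.5 CPM, against 41.7 ± 20.1 CPM in wild-type CMP (SD, n = 3 each; log2 fold change 4.74, edgeR adjusted p = 0.00424). Of the 6 markers tested between CMP genotypes, 3 leaned to the enhancer-null side and 3 to the wild-type side. Monocyte markers, 8 genes, summed to 89.8 to 210 CPM in enhancer-null CMP against 1057 to 1377 CPM in wild-type CMP, and 8 neutrophil markers to 3.81 to 27.2 CPM in enhancer-null against 25.9 to 2099 CPM in wild-type CMP. T and NK cell markers, 8 genes, summed to 199 to 321 CPM in enhancer-null CMP against 66.2 to 135 CPM in wild-type CMP, and to 262 to 303 CPM in enhancer-null LSK against 78.3 to 165 CPM in wild-type LSK. Nkg7, a granule protein of cytotoxic cells, made up most of these sums, with 260.0 ± 61.0 CPM in enhancer-null against 84.9 ± 37.3 CPM in wild-type CMP, and 278 ± 21.4 CPM in enhancer-null against 119.6 ± 42.2 CPM in wild-type LSK (SD, n = 3 each; edgeR adjusted p = 0.0978 and 0.23). The part of any of these in the values of the p53 targets was not tested.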

How the data were processed

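RNA of sorted cells was amplified before sequencing of both fragment ends (75 bp), per the labels' protocols. The authors deposited raw read counts by gene symbol in a file for each library. The submitters' processing notes list TopHat2 2.0.4, TopHat, Bowtie, HTSeq and the mm10 build. Neither annotation nor counting mode nor strand setting is given in the sources used here. Count entries without a gene name, 37.2% to 46.9% of a library, were dropped before scaling and testing. Wild-type CMP replicate 6 came with a list of 23456 symbols, against 24420 elsewhere. Joining 22779 identical symbols and 604 older names gave 23383 genes, with Tigar under an older name in that file. Lengths, positions and exon overlaps came from GENCODE M21.

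edgeR 4.0.16 in R 4.3.3 (quasi-likelihood, robust, TMM, expression filter with a minimum count of 10) was fitted on the libraries of each comparison, with Benjamini-Hochberg adjustment over all genes at 0.05. The biological coefficient of variation was 0.719 to 0.823. SE is the size of the log2 fold change over the root of F. DESeq2 1.42.0, other size factors, no filter, sex as a covariate, 1 fit over 12 libraries, a replicate block and leaving out each library were alternatives. The scripts were tested on simulated data. Replicates of a group differed beyond sampling noise, with chi-square per degree of freedom of 43.1 to 183. The floor of 3 counts per library is 0.0612 to 0.487 CPM and covers counting error only, because reads carry no molecular identifiers.

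Members and lists were chosen with earlier results of these data known. Given in full were members past the threshold, up to 8 members per comparison with the largest change among those without overlap whose higher group averaged 5 CPM or more, the regulators Trp53, Mdm2, Mdm4 and Ppm1d, and the Gadd45 genes; the per-library values of other members were named outside that rule, after their values were seen. Of the other lists, up to 4 genes past the threshold per comparison, or else the gene with the smallest p, could be named.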

Additional observations from a re-analysis of the deposited data

How the results depend on the processing

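The number of members past the threshold moved as follows. Between CMP genotypes it was 0, and 4 with DESeq2, 1 without the expression filter (Trp53inp1) and 2 in 1 fit over 12 libraries (Plk2 and Trp53inp1). Between LSK genotypes it was 0 under every alternative run. Between wild-type CMP and LSK it was 2, and 4 with DESeq2, 1 with sex as a covariate (Plk2), 0 with a replicate block and 0 to 2 when 1 library was left out. In enhancer-null cells it was 0, and 2 with DESeq2 and 1 in 1 fit over 12 libraries (Plk2). For the difference in genotype effect it was 0, and 0 to 1 when 1 library was left out, Plk2 being called without enhancer-null CMP replicate 2 (−4.33, adjusted p = 0.0264).

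Over all genes the count between CMP genotypes was 69, and 629 with DESeq2, 270 without the filter, 31 with sex, 232 in 1 fit and 7 to 92 when 1 library was left out. Between LSK genotypes it was 12, and 268 with DESeq2, 39 without the filter, 3 with sex, 26 in 1 fit and 1 to 21 when 1 library was left out. Between wild-type cell types it was 505, and 1609 with DESeq2, 285 with sex, 132 with a replicate block and 54 to 880 when 1 library was left out, the highest without wild-type LSK replicate 6. In enhancer-null cells it was 0 (780 genes at an unadjusted p under 0.05), and 205 with DESeq2, 9 without the filter and 37 in 1 fit. For the difference in genotype effect it was 37, and 191 with DESeq2, 68 without the filter, 7 with a replicate block and 12 to 107 when 1 library was left out.

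Of 762 alternatives of 61 named log2 fold changes, 35 reversed the sign, each of a value that did not pass. Beyond leaving out a library, these were Ppm1d, at 0.091 with a replicate block in wild-type CMP over LSK, −0.18 with sex and −1.09 with a replicate block in enhancer-null CMP over LSK, and −0.035 with sex and −1.11 with a replicate block in the difference, and Gadd45g in enhancer-null CMP over LSK, at 0.0047 in 1 fit and 0.14 with a replicate block. Leaving out a library gave the rest, as these ranges. Between CMP genotypes Trp53 ran from −0.037 to 0.079 and Ppm1d from −0.97 to 0.37. Between LSK genotypes Mdm2 ran from −0.52 to 0.10, Ppm1d from −0.56 to 0.16 and Gadd45a from −1.08 to 0.021. In wild-type CMP over LSK Ppm1d ran from −0.28 to 0.46 and Gadd45b from −1.24 to 0.12. In enhancer-null CMP over LSK Trp53 ran from −0.021 to 0.11, Mdm2 from −0.26 to 0.54, Ppm1d from −0.71 to 0.64 and Gadd45g from −0.42 to 0.53. In the difference Mdm4 ran from −0.14 to 0.66, Ppm1d from −0.65 to 0.63, Gadd45b from −0.45 to 0.80 and Gadd45g from −0.61 to 0.30. Plk2 in wild-type CMP over LSK ran from −2.57 to −2.02 over 12 alternatives and passed in 6, not with a replicate block or in 1 fit, and Sesn1 from −1.20 to −0.87 and passed in 5, not with sex or a replicate block. The cause was not tested.

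Same-numbered CMP and LSK libraries carried the same sex by Xist and Y-linked genes, in the enhancer-null groups 2 of 3 and in the wild-type groups 1 of 3 being Y-linked. Their deviations from the group means correlated at −0.035 to 0.093, below the 0.1 set for pairing, and the labels do not say whether same-numbered libraries came from the same animal. No paired analysis was possible between genotypes, because an enhancer-null and a wild-type library cannot come from the same animal. With 3 libraries a group and this spread, differences of the size seen here were mostly not separable from replicate error.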
